A study of Mus musculus with 70 samples.

Results

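The hypoxia response and glycolysis were followed here through 38 genes: the oxygen-sensing genes Vhl, Hif1a, Epas1, Egln1 and Egln3, the genes that hypoxia-inducible factors (HIFs) are known to activate, and the enzymes that take glucose to lactate. The genes were chosen by name, and the probe with the highest mean signal over all arrays stood for its gene, so that 38 of the 21154 gene symbols that could be matched to a probe were described. RENCA is a mouse renal adenocarcinoma line that carries wild-type Vhl, and the cells had been made to express GFP with a lentiviral vector. The study asked how the transcriptome of these cells moved when they were taken repeatedly through immunocompetent mice, and whether late cells came to resemble VHL-mutated carcinoma.

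GFP-RENCA cells before any mouse passage formed the P0 group, with 2 RNA samples. Every other group came from wild-type female BALB/c mice, 6 weeks old at injection, with no further treatment. Cells placed under the kidney capsule and recovered from the primary tumour gave KPT (5, 2, 2, 3, 5 and 5 RNA samples at passages P1 to P6). Cells injected into the tail vein and recovered from the lung gave T-LM (5, 2, 3, 4, 6 and 4), and cells placed in the kidney and recovered from lung metastases gave K-LM (1, 1, 5, 3, 4 and 3). Recovered tissue was digested and kept in culture so that cells of the host died off before the next injection, and the hosts had complete immune systems. The study reports that culture went on until no cells without GFP were detected, with purity checked by fluorescence microscopy or flow cytometry. The labels describe homogenised samples for RNA while the methods of the study describe cell lines, so it is not settled whether the RNA of P1 to P6 came from tissue or from cultured cells, which bears on the marker levels and on every value from P1 to P6. All groups descend from a single cell line, and nothing in the labels ties a replicate number to a mouse, so the p-values measure the spread between these samples.

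Under normal oxygen, prolyl hydroxylases of the EGLN family mark the HIF alpha subunits, and the Vhl protein then leads them to degradation. When oxygen is low or Vhl is lost, the alpha subunits made by Hif1a and Epas1 persist, pair with Arnt and bind the short core ACGTG, or its variant GCGTG, near target genes. Known targets raise glucose uptake, glycolysis, lactate and acid export and vessel growth, and they include Egln3 itself. Loss of VHL is the hallmark event of clear cell renal carcinoma, in which CA9, the product of the human counterpart of Car9, is used as a tumour marker.

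The upstream sequences of the genes that changed most from P0 to P6 show where that core stands. For 32 of the 38 genes the RefSeq-derived promoter table (build GRCm38.p6) held 1 or more transcription starts, and the 250 bases before each start were searched on both strands for ACGTG, which reads CACGT on the opposite strand, as well as for GCGTG, which reads CACGC there. ACGTG was found in 46.8% of the 47 listed member promoters against 16.6% of all 32851 promoters of that length, and GCGTG in 48.9% against 28.2%. Either motif stood in 29 of the 32 genes and in 76.6% of their promoters, against 38.6% of all. Many members were picked as known HIF targets, and the promoters were not matched for base composition. These shares therefore do not test whether HIF controls the genes in these cells. Epas1, Slc2a3, Ndrg1, Bnip3l, Bhlhe40 and Angptl4 had no entry. The windows below are those of the genes called from P0 to P6, and capitals mark every match. The Car9 window (chr4:43506776-43507025, plus strand) holds CACGT starting 18 bases before the start, and the Slc16a3 window (chr11:120948817-120949066, plus strand) holds ACGTG 27 and 14 bases before it. The Egln3 window (chr12:54203875-54204124, minus strand) holds ACGTG at 229 bases, and the Pfkfb4 window (chr9:108991652-108991901, plus strand) holds GCGTG at 117 bases. The Slc2a1 window (chr4:119108495-119108744, plus strand) holds CACGC at 61 and ACGTG at 36 bases, and the Ddit4 window (chr10:59951771-59952020, minus strand) holds ACGTG at 187 and GCGTG at 115 bases. A match describes letters and is not a binding site.
Car9: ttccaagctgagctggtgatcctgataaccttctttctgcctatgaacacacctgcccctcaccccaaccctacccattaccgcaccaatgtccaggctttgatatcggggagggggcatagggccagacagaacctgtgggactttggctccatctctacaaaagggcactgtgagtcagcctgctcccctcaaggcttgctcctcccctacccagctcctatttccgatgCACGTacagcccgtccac
Slc16a3: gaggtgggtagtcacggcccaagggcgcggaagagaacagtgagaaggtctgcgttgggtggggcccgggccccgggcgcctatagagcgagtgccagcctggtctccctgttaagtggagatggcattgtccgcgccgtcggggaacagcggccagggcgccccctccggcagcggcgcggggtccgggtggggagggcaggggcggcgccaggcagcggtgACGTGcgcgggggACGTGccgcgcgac
Egln3: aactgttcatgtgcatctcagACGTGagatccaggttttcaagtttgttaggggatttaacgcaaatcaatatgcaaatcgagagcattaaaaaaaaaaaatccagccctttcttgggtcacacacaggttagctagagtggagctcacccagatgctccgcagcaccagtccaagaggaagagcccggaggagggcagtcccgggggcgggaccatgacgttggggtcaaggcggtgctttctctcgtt
Pfkfb4: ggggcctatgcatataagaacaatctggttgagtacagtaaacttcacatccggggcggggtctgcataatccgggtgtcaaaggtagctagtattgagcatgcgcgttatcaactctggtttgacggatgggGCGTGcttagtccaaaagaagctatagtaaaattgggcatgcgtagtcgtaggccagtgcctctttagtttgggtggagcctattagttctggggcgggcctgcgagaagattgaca
Slc2a1: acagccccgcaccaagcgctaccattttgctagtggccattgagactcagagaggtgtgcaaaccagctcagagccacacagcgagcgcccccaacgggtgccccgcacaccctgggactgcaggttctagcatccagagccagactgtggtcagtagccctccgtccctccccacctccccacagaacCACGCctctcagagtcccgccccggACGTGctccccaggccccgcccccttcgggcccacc
Ddit4: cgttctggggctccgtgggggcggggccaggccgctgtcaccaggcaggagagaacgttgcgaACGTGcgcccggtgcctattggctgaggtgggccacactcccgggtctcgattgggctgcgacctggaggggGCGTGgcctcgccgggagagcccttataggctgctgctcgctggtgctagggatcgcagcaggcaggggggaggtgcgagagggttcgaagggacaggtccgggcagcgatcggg

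Levels are on the log2 scale and are the scanner's processed signal relative to the 75th percentile of that array, so 0 is the brightness of that percentile and a step of 1 is a doubling of signal. The percentile was taken over the 12219 probes well above background on all arrays. Levels of different probes are not comparable with each other. A probe called dim was not well above the local background. The share of probes that passed background ran from 25.3% to 55.3% over the arrays. Of the 38 genes, 33 were above background in all 65 RNA samples, Car9 in 64, Slc16a3 in 54, Egln3 in 40, Egln1 in 13 and Mxi1 in 0, so Mxi1 entered no test. An RNA sample with a repeat array counted as above background when either array passed. A probe entered a fit when it was well above background on at least 2 of the arrays, a step that a gene can pass through the groups in which it is high.

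Several measured features ran beside the groups. All 3 K-LM P6 samples lie on a slide scanned apart from the other 8 with other scanner software (the late slide), together with repeat arrays of both P0 samples and of 3 KPT P6 samples, and the K-LM and P6 comparisons hold a term for it. An RNA-quality index, the mean level of 18 long mRNAs minus that of 59 ribosomal protein mRNAs, averaged −6.45 at P0, between −6.50 and −6.19 in the 3 P6 groups, between −7.95 and −7.55 in the P3 groups and −5.61 and −5.49 in KPT P1 and T-LM P1. The means of P0, KPT P6 and K-LM P6 include late-slide arrays. On that slide the index read 0.79 and 0.45 higher than on the first arrays of the P0 samples, and 0.07 to 0.54 higher for KPT P6. Mean levels over 8 fibroblast markers ran from −8.24 to −8.19 at P0, with Lum, Pdgfra, Thy1 and Fap dim in both samples. They ran from −5.64 to −4.78 in KPT P6, from −3.18 to −1.37 in T-LM P6 and from −4.93 to −3.13 in K-LM P6. Over 12 leukocyte and macrophage markers the mean level was −6.06 to −5.81 at P0, −5.38 to −4.73 in KPT P6, −3.66 to −2.84 in T-LM P6 and −5.94 to −5.74 in K-LM P6. Of 8 lung epithelial markers 3 to 5 were above background in the T-LM P6 samples and 0 or 1 at P0, and of 10 renal epithelial markers 4 or 5 were above background at P0, where Epcam, Cdh1, Cdh16, Pax2 and Lhx1 were dim in both samples. Endothelial markers were above background for 2 or 3 of 8 in every sample of P0 and P6. In bulk RNA, a larger share of cells expressing a gene and more RNA per cell cannot be told apart, and the part of these features in the results was not tested.

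**Figure D1:**
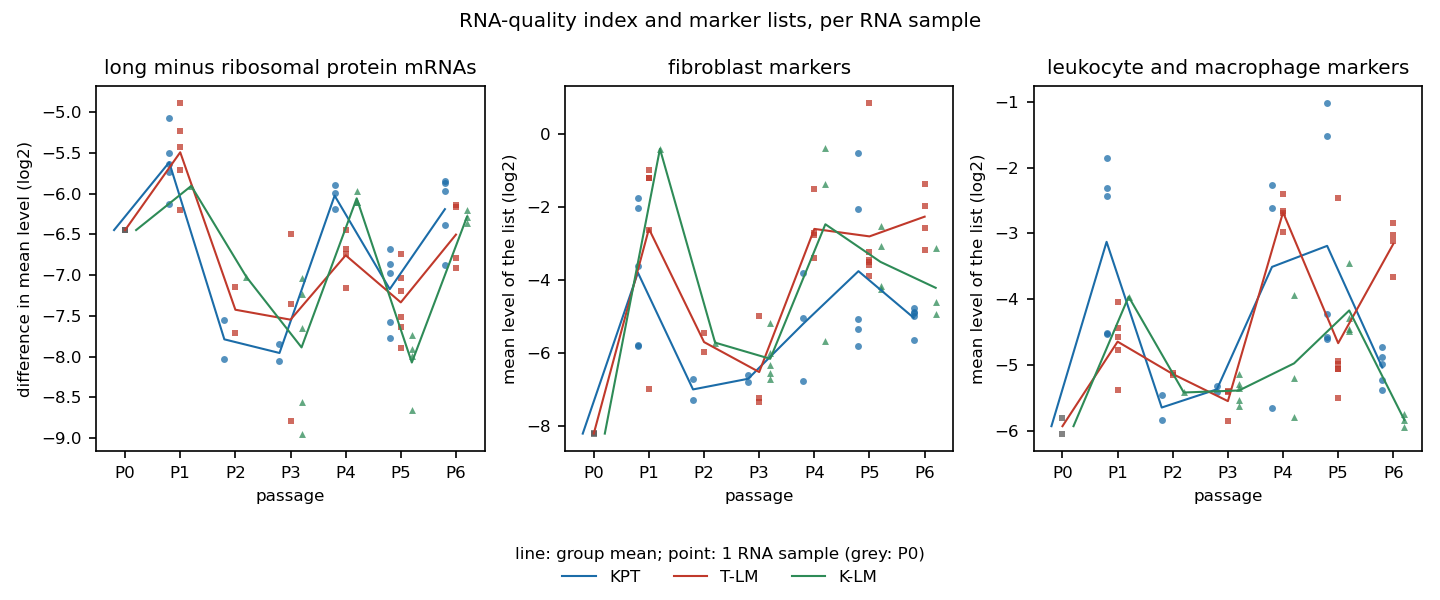
RNA-quality index (left), mean level of 8 fibroblast markers (middle) and mean level of 12 leukocyte and macrophage markers (right), on the log2 scale, against passage. Points are RNA samples, lines join group means and grey points are P0; fibroblast markers lie near −8.2 at P0 and between −5.64 and −1.37 in all P6 samples, and the index averages −7.95 to −7.55 in the 3 P3 groups.

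From P0 to P6, a small set of genes moved while the central enzymes of glycolysis did not pass the test. Pfkfb4 was called higher in all 3 routes. Slc16a3 was higher in T-LM and K-LM, Car9 in KPT and T-LM, Slc2a3 in KPT and K-LM, Egln3 in T-LM, Slc2a1 in K-LM, and Ddit4 was lower in KPT. In KPT 4 of 36 tested members were called (3 higher, 1 lower) beside 3.8% of all probes tested, in T-LM 4 of 37 (all higher) beside 7.25%, and in K-LM 4 of 37 (all higher) beside 5.51%. Calls are those of limma at an adjusted p up to 0.01 (Benjamini-Hochberg, over all probes of the fit), and every adjusted p below is from it. The median change of the members was −0.11, 0.17 and 0.41 on the log2 scale in KPT, T-LM and K-LM, against −0.02, 0.01 and 0.01 over all probes. With arrays scaled on the percentile of all probes, these medians became −0.22, −0.06 and 0.31 for the members and −0.14, −0.22 and −0.09 over all probes, so the sign of the T-LM median depends on the scaling. The 3 comparisons share the P0 samples, so their results are not independent of each other. In all, 7 members were called in at least 1 route and 31 in none. The comparison rests on 2 P0 samples: leaving out either left 2 calls in KPT, and leaving out any single sample of P0 or K-LM P6 left 3 in K-LM.

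**Figure D2:**
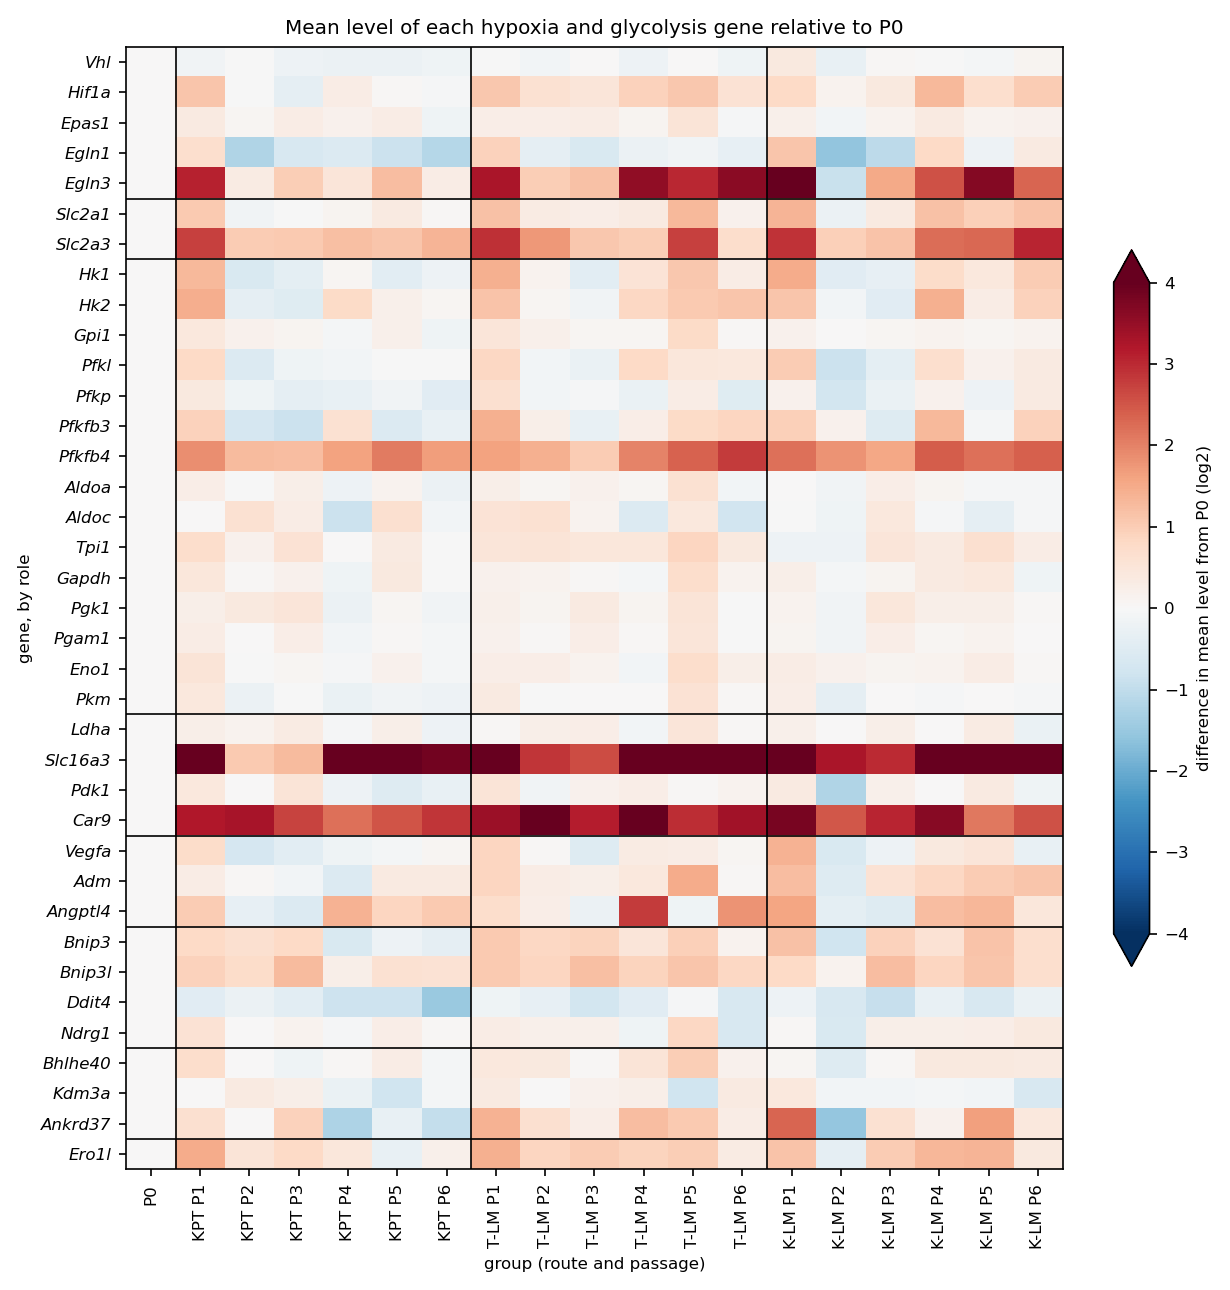
Difference of each group's mean level from P0 (colour, log2) for 37 genes in rows ordered by role and 19 groups in columns; Mxi1, never above background, is left out. Slc16a3, Car9, Egln3, Slc2a3 and Pfkfb4 stand out as red rows, and Pgk1, Ldha, Pgam1 and Vhl stay near white.

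Among the acid and lactate exporters, Slc16a3, the MCT4 transporter that carries lactate out of glycolytic cells, was above background in 54 of the 65 RNA samples. Its levels at P0 were −9.01 and −8.75, both dim. They were −6.14, −5.11, −5.11, −4.44 and −4.29 in KPT P6, −0.36, 0.48, −1.03 and −1.60 in T-LM P6, and −3.95, −4.30 and −1.64 in K-LM P6. Every P6 sample lay above both P0 samples. The 4 T-LM samples lay above the others, but the lowest, at −1.60, was barely above K-LM P6 replicate 3, at −1.64. On the late slide, which holds all K-LM P6 arrays, Slc16a3 read 0.53 lower than on the first arrays of the same 5 RNA samples. The order of T-LM and that K-LM sample is therefore not settled. Against the dim P0 group the signal was at least 77-fold higher in T-LM P6 (adjusted p = 8.32e-05) and at least 12.1-fold higher in K-LM P6 (adjusted p = 2.91e-05), and in KPT it was at least 3.67-fold higher with an adjusted p of 0.27, past no threshold. The mean of the fibroblast markers had the same order of groups, T-LM P6 highest and P0 lowest.

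The level of Slc16a3 also differed widely inside groups. In KPT P5 it was 0.57 and −0.31 in replicates 1 and 2 and −5.47, −6.12 and −5.69 in replicates 3 to 5. The fibroblast marker mean of the same 5 samples was −0.52, −2.07, −5.35, −5.82 and −5.08, and the leukocyte marker mean was −1.53, −1.01, −4.22, −4.61 and −4.58. The 2 samples high for Slc16a3 were thus the 2 high for both marker lists. In T-LM P5, replicate 1 had a Slc16a3 level of 1.07 and a fibroblast mean of 0.85, while the other 5 samples lay between −3.96 and −2.17 for Slc16a3 and between −3.91 and −3.25 for the markers. In KPT P1 the levels were −5.04, −5.13, −1.55, 0.95 and 0.46 for Slc16a3 beside fibroblast means of −5.81, −5.80, −3.63, −1.76 and −2.04. The same samples ran high in both measures in these 3 groups, and the part of other cell types in them was not tested.

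Car9, the carbonic anhydrase that acidifies the space outside hypoxic cells, was −6.74 and −7.50 at P0, the second of these dim. In KPT P6 it was −4.48, −3.81, −3.55, −4.60 and −4.85, in T-LM P6 −3.55, −4.12, −3.58 and −3.84, and in K-LM P6 −4.05, −5.03 and −4.62. All 12 P6 samples were above both P0 samples, and the 3 routes overlapped each other. The fitted rise was 3.23 ± 0.43 (SE) in KPT (9.38-fold, adjusted p = 9.09e-05) and 3.74 ± 0.38 in T-LM (13.4-fold, adjusted p = 1.14e-06). In K-LM the fitted change was 2.37 ± 0.62 with an adjusted p of 0.0134, outside the threshold. Car9 was high from the first passage on: at P1 it lay between −4.81 and −3.04 in KPT and between −4.44 and −2.52 in T-LM.

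The other genes of this role were called in no route. Ldha, lactate dehydrogenase A, was 3.88 and 4.5 at P0, 3.68 to 4.29 in KPT P6 and 3.88 to 3.96 in K-LM P6. In T-LM P6 it was measured in 3 of 4 samples, at 4.49, 3.82 and 4.37. All routes overlapped P0, the K-LM samples at its lower end, and the fitted changes of −0.54, −0.45 and 0.06 had adjusted p of 0.217, 0.553 and 0.944. On the late slide Ldha read 0.66 lower than on the first arrays of the same 5 RNA samples. Pdk1, which keeps pyruvate out of the mitochondria, had changes of −0.22, 0.20 and −0.17 in KPT, T-LM and K-LM.

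**Figure D3:**
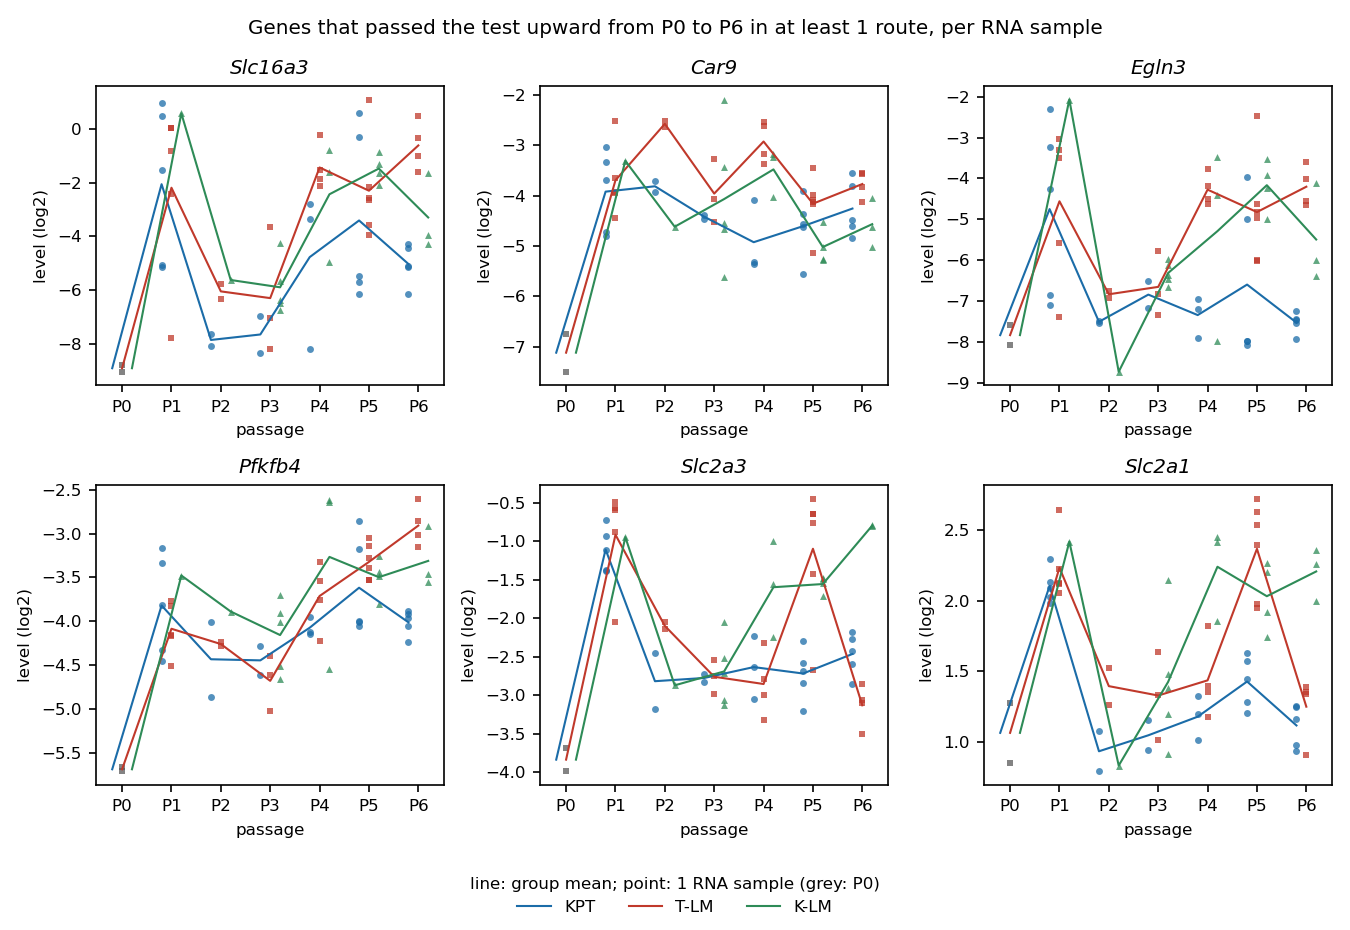
Levels (log2) of Slc16a3, Car9, Egln3, Pfkfb4, Slc2a3 and Slc2a1 against passage, with a point per RNA sample, a line through the group means for each route and P0 in grey. The means of all 6 are higher at P1 than at P0, and at P6 Slc16a3 and Egln3 are highest in T-LM while Slc2a3 and Slc2a1 are highest in K-LM.

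Both glucose transporters were called, in different sets of routes. Slc2a3 encodes GLUT3, a high-affinity glucose transporter, and was −3.69 and −3.99 at P0. It was −2.85, −2.27, −2.18, −2.43 and −2.60 in KPT P6 and −3.10, −3.50, −2.86 and −3.06 in T-LM P6. In K-LM P6 it was −0.79 and −0.80 in replicates 2 and 3, and the spot of replicate 1 was an outlier on its array and was left out of the fit. No P6 sample overlapped P0, and the 2 K-LM values stood above all KPT and T-LM values. The fitted rise was 1.49 ± 0.26 in KPT (2.8-fold, adjusted p = 0.00148) and 3.00 ± 0.32 in K-LM (7.98-fold, adjusted p = 4.9e-07).

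Slc2a1, the widely expressed glucose transporter GLUT1, was 1.28 and 0.85 at P0 and 2.36, 2.00 and 2.26 in K-LM P6. It was 1.17, 1.25, 1.26, 0.98 and 0.94 in KPT P6 and 1.34, 0.91, 1.39 and 1.36 in T-LM P6. K-LM P6 lay apart from P0, while KPT and T-LM P6 overlapped it. The fit gave a 2.15-fold rise in K-LM (1.11 ± 0.27 on the log2 scale, adjusted p = 0.00893) and changes of −0.12 ± 0.18 and 0.09 ± 0.26 in KPT and T-LM. The K-LM call was lost when any single sample of P0 or K-LM P6 was left out, with adjusted p between 0.0136 and 0.18.

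Of the 15 glycolysis enzymes and their regulators, Pfkfb4 alone was called from P0 to P6 by its brightest probe. It is a bifunctional enzyme that sets the level of fructose 2,6-bisphosphate, the main activator of phosphofructokinase. Its levels were −5.67 and −5.71 at P0, where a first array was dim while the repeat array of the same RNA was not. In KPT P6 they were −4.24, −3.88, −3.97, −3.92 and −4.05, in T-LM P6 −2.86, −3.02, −2.60 and −3.15, and in K-LM P6 −3.46, −3.56 and −2.92. All P6 samples lay above P0, and T-LM lay above KPT without overlap. The K-LM levels were also above those of KPT, but Pfkfb4 read 0.31 higher on the late slide than on the first arrays of the same 5 RNA samples. With the slide term in the fit, Pfkfb4 was not called for K-LM against KPT at P6. The rise was 3.52-fold in KPT (1.82 ± 0.30, adjusted p = 0.000758), 7.96-fold in T-LM (2.99 ± 0.24, adjusted p = 4.98e-08) and 4.69-fold in K-LM (2.23 ± 0.37, adjusted p = 0.000154). Its P1 samples already lay between −4.51 and −3.17, above P0 in all 3 routes.

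A second probe of Pfkfb3 was called higher in K-LM (1.08 ± 0.26, adjusted p = 0.0072), where its brightest probe was not (0.90 ± 0.37, adjusted p = 0.148).

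None of the remaining enzymes was called by its brightest probe. Over the 15 enzymes the P0 to P6 change ran from −0.49 to 1.82 in KPT with a median of −0.21, from −0.88 to 2.99 in T-LM with a median of −0.03, and from 0.02 to 2.23 in K-LM with a median of 0.30, and the highest value in each was that of Pfkfb4. Pgk1, phosphoglycerate kinase, a textbook HIF target, was 4.06 and 4.14 at P0, 3.83 to 4.08 in KPT P6, 3.98 to 4.23 in T-LM P6 and 4.02 to 4.30 in K-LM P6. Its groups overlapped P0 in every route, and its changes of −0.22, −0.13 and 0.12 had adjusted p of 0.472, 0.817 and 0.813. Across all 19 groups the means of Pgam1, Pgk1 and Ldha moved over 0.62, 0.73 and 0.75, less than 1 doubling. Other enzymes moved further, with 2.27 for Pfkfb3, 2.10 for Hk1, 1.93 for Hk2 and 1.87 for Pfkl. Gapdh, Eno1 and Aldoa read 0.53, 0.46 and 0.37 lower on the late slide than on the first arrays of the same RNA.

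**Figure D4:**
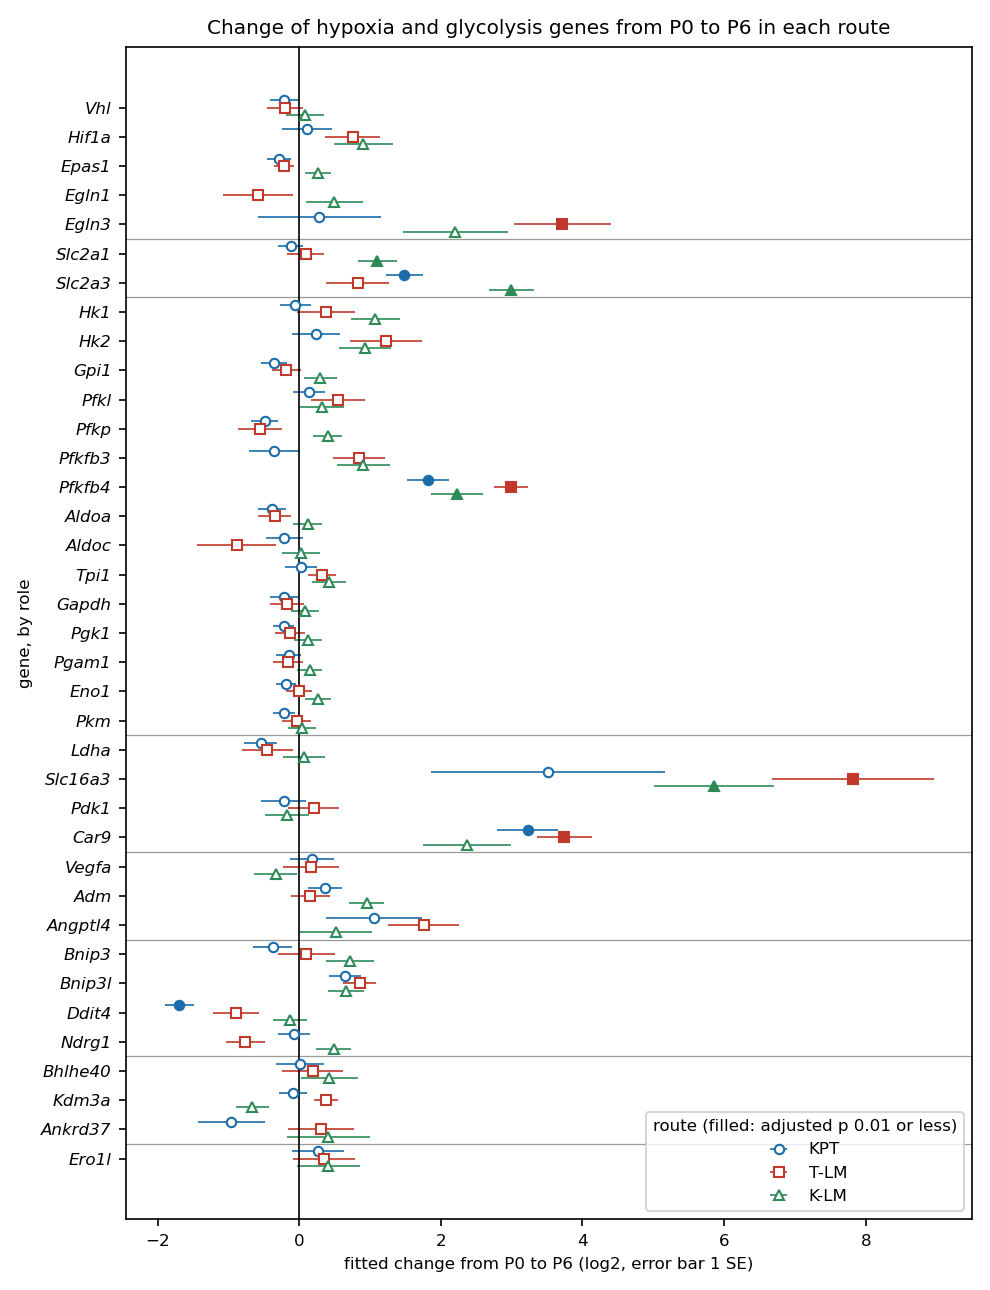
Fitted change from P0 to P6 (log2, error bars 1 SE) for the members, ordered by role, in KPT (blue circles), T-LM (red squares) and K-LM (green triangles), filled where the adjusted p was 0.01 or less. The filled points are Egln3, Slc2a1, Slc2a3, Pfkfb4, Slc16a3, Car9 and, on the left, Ddit4 in KPT.

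In the oxygen-sensing machinery, the components that set HIF levels did not pass the test by their brightest probes. Egln3, an induced target, did in T-LM, and so did a second Epas1 probe. Vhl, the substrate-binding part of the ubiquitin ligase, was −0.91 and −1.78 at P0, and its 12 P6 samples lay between −1.64 and −1.07, inside that interval. Its fitted changes were −0.22 ± 0.20, −0.20 ± 0.26 and 0.08 ± 0.27 in KPT, T-LM and K-LM. A probe measures the amount of Vhl mRNA and does not read its sequence. By qPCR of P0 and P6 RNA, the study reported lower Vhl in every route. It also reported Hif2a, the gene named Epas1 here, higher chiefly in K-LM and T-LM, and Hif1a slightly lower in KPT.

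Hif1a was −0.93 and −0.86 at P0, −1.15 to −0.47 in KPT P6, −0.50 to 0.12 in T-LM P6 and 0.26, 0.04 and 0.07 in K-LM P6. The T-LM and K-LM samples lay above P0 and the KPT samples around it. The fitted changes of 0.11, 0.76 and 0.91 had adjusted p of 0.918, 0.258 and 0.201, so none was past the threshold. HIF activity is set largely by protein stability, which was not measured.

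Epas1, which encodes HIF-2 alpha, gave different answers from its probes. The brightest probe was −1.71 and −1.40 at P0, −1.87 to −1.59 in KPT P6, −1.66 to −1.54 in T-LM P6 and −1.40, −1.35 and −1.36 in K-LM P6. Its changes of −0.28, −0.21 and 0.26 were past no threshold. The second probe was dim in both P0 samples and all 5 KPT P6 samples, and was −5.16, −4.34, −4.76 and −5.68 in T-LM P6. Against the dim P0 group that probe was at least 3.75-fold higher in T-LM (adjusted p = 0.000133), and in K-LM P6 it was above background in 1 of 3 samples (adjusted p = 0.138). The brightest probe alone counts in the totals above.

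Egln3, the prolyl hydroxylase that HIF itself induces, was −8.06 and −7.59 at P0, the second of these dim. It was −7.93, −7.47, −7.23, −7.53 and −7.43 in KPT P6, where 3 of 5 samples were dim. It was −4.01, −3.59, −4.55 and −4.65 in T-LM P6 and −5.98, −6.38 and −4.11 in K-LM P6. T-LM and K-LM P6 lay above P0 and KPT without overlap, and KPT overlapped P0. The T-LM rise was 3.71 ± 0.68 (13.1-fold, adjusted p = 0.000866), while K-LM at 2.21 ± 0.75 (adjusted p = 0.0635) and KPT at 0.29 ± 0.86 (adjusted p = 0.912) were outside the threshold. A different Egln3 probe, dim in both P0 samples, was at least 3.39-fold higher in T-LM (adjusted p = 0.00679). In KPT P5, Egln3 was −3.97 and −4.98 in replicates 1 and 2 and −8.07 to −7.96 in the other 3, the same split as for Slc16a3. Egln1, the main oxygen sensor of normal tissue, was above background in 13 samples in all and was not called from P0.

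**Figure D5:**
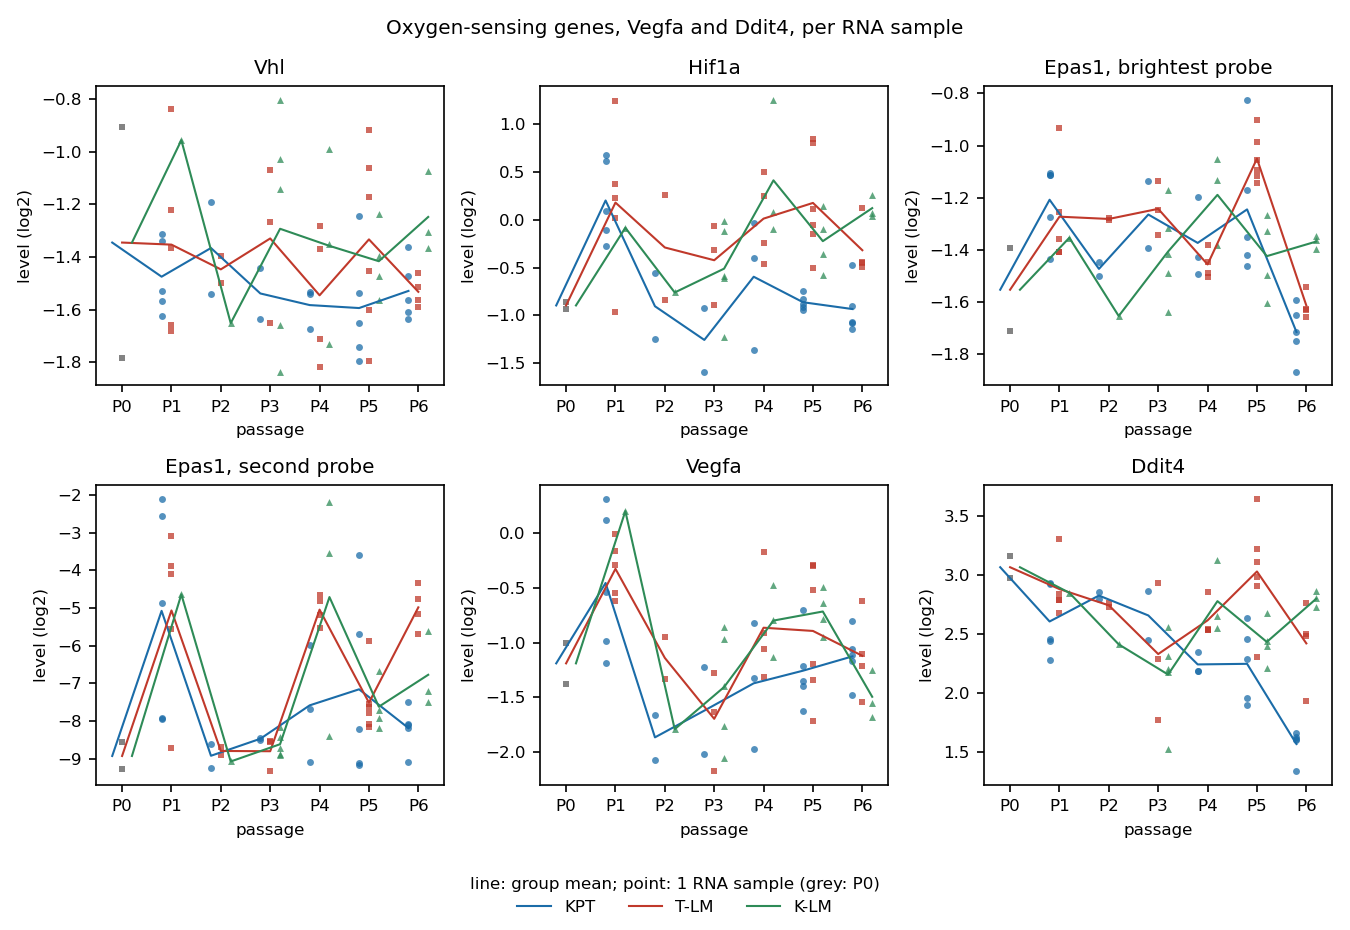
Levels (log2) of Vhl, Hif1a, the brightest and the second Epas1 probe, Vegfa and Ddit4 against passage, with a point per RNA sample, a line through the group means of each route and P0 in grey. Vhl moves within about the spread of its P0 samples, the second Epas1 probe separates T-LM P6 from KPT P6, and Ddit4 is lowest in KPT P6.

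Of the secreted factors, Vegfa, the main signal for vessel growth, was −1.0 and −1.38 at P0. It was −1.48 to −0.80 in KPT P6, −1.54 to −0.62 in T-LM P6 and −1.68 to −1.25 in K-LM P6. All routes overlapped P0, and the changes of 0.18, 0.17 and −0.33 had adjusted p of 0.834, 0.874 and 0.623. Angptl4, a secreted inhibitor of lipoprotein lipase, was 0.46 and −0.16 at P0 and 1.70, 1.81, 1.89 and 2.41 in T-LM P6, with no overlap and an adjusted p of 0.025. Adm, the vasodilator adrenomedullin, changed by 0.95 ± 0.25 in K-LM (adjusted p = 0.0128).

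Ddit4 was the only member called lower from P0. It encodes REDD1, an inhibitor of mTORC1 signalling that is induced by hypoxia and other stresses. Its levels were 3.16 and 2.97 at P0 and 1.61, 1.66, 1.63, 1.61 and 1.34 in KPT P6. They were 2.77, 1.94, 2.49 and 2.50 in T-LM P6 and 2.80, 2.87 and 2.73 in K-LM P6. All P6 samples were below P0, KPT lay below both other routes, and K-LM came nearest to P0. On the late slide Ddit4 read 0.30 lower than on the first arrays of the same 5 RNA samples. The fall was 3.23-fold in KPT (−1.69 ± 0.21, adjusted p = 3.82e-05), and the changes of −0.89 ± 0.32 in T-LM (adjusted p = 0.0843) and −0.13 in K-LM (adjusted p = 0.843) were outside the threshold. The mitophagy receptors Bnip3 and Bnip3l, the differentiation gene Ndrg1, the feedback regulators Bhlhe40, Kdm3a and Ankrd37 and the oxidase Ero1l were called in no route, with changes from −0.96 to 0.85.

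Outside the 38 members, genes of the same pathways were counted by list. For comparison, 3.8%, 7.25% and 5.51% of all probes tested were called in KPT, T-LM and K-LM. Of the genes of the HIF pathway itself, 0 of 8 tested were called by limma in each route, and 1, 1 and 0 had an unadjusted p under 0.05 in KPT, T-LM and K-LM. Of 29 other HIF target genes tested, 1 rose and 1 fell in KPT and 6 rose in T-LM. K-LM had 28 of them tested, and 4 rose. The called genes made up 6.9%, 20.7% and 14.3% of this list in KPT, T-LM and K-LM. Among these, Ccnd1 (cyclin D1) was called in all 3 routes, with changes of 2.37, 2.14 and 2.99, and Pygl, liver glycogen phosphorylase, was at least 12.4-fold higher in T-LM (adjusted p = 0.000435) and at least 3.94-fold higher in K-LM (adjusted p = 0.00188). Of the other glycolysis genes, 1 of 17 rose in KPT, 1 of 19 rose and 1 fell in T-LM, and 1 of 18 rose in K-LM, where Slc2a4, the insulin-responsive transporter GLUT4, was at least 1.75-fold higher (adjusted p = 7.91e-05), as it was in KPT at least 1.21-fold (adjusted p = 0.000389). The called share of these other glycolysis genes was 5.88%, 10.5% and 5.56% in KPT, T-LM and K-LM, near that over all probes. Of 3 gluconeogenesis genes tested, Pck2 fell in KPT, Pcx fell in T-LM and none was called in K-LM.

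The step from P3 to P6 covers the later passages within each route. In KPT 0 of 36 members were called by limma, beside 0.772% of all probes, and 9 had an unadjusted p under 0.05, of which 8 were lower. In T-LM 4 of 37 were called, all higher, beside 7.05%, and in K-LM 7 of 37, all higher, beside 5.85%. The K-LM calls include Egln1, which was dim in every K-LM P3 sample and for which a rise is not shown. The members' median change was −0.08, 0.02 and 0.24, against 0.07, 0.09 and 0.11 over all probes. Scaled on the percentile of all probes, they were −0.29, −0.27 and 0.03 against −0.14, −0.20 and −0.10. The long mRNAs had median changes of 1.42, 1.01 and 1.13 over the same steps, with 3, 3 and 4 of 17 called higher.

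In T-LM the 4 were Slc16a3, Pfkfb4, Egln3 and Angptl4. Slc16a3 rose by 5.66 ± 1.00 (adjusted p = 0.000783) from −8.15, −7.03 and −3.67 at P3, of which the first was dim. Pfkfb4 rose by 1.77 ± 0.21 (adjusted p = 1.4e-05) from −5.02, −4.62 and −4.40. Both had all P6 samples above all P3 samples. Egln3 rose by 2.45 ± 0.60 (adjusted p = 0.00992) from −6.83, −7.34 and −5.78, and Angptl4 by 2.02 ± 0.44 (adjusted p = 0.00438) from −1.75, 0.39 and 1.16, again without overlap. The other Egln3 probe was not called over this step (adjusted p = 0.0269). With single samples left out, Slc16a3 and Pfkfb4 were called in 7 of 7 fits, Angptl4 in 3 and Egln3 in 1. Leaving out T-LM P3 replicate 2, or T-LM P6 replicate 2, 3 or 4, left 2 calls. Over the same step 5 of 8 fibroblast markers, 5 of 12 leukocyte markers and 4 of 5 tested lung epithelial markers were called higher, and the fibroblast marker mean at P3 was −7.35 to −5.01.

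In K-LM the 7 were the transporters Slc2a3 and Slc16a3, the hexokinases Hk1 and Hk2, Pfkfb3, Egln1 and Ddit4. Slc2a3 rose by 1.80 ± 0.30 (adjusted p = 0.000546) from −2.05, −2.51, −3.07, −3.12 and −2.71 at P3. Hk1, the hexokinase of most tissues, rose by 1.46 ± 0.32 (adjusted p = 0.00435) from 0.02, 0.20, −0.29, −1.04 and −0.13 to 1.1, 1.09 and 1.01. Both were without overlap between P3 and P6. Hk2, the inducible hexokinase, rose by 1.39 ± 0.34 (adjusted p = 0.00831) from −2.53, −3.12, −2.71, −4.08 and −3.14 to −1.67, −1.97 and −1.67. Pfkfb3, a strongly kinase-active relative of Pfkfb4, rose by 1.39 ± 0.35 (adjusted p = 0.00913) from −1.44, −3.01, −1.89, −2.79 and −2.54 to −0.67, −0.93 and −1.12. These also did not overlap. The other Pfkfb3 probe, dim in all 5 P3 samples, was at least 1.03-fold higher over this step and was not called (adjusted p = 0.0917).

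Slc16a3 rose in K-LM by 3.14 ± 0.78 (adjusted p = 0.00934) from −5.65, −6.35, −4.24, −6.45 and −6.72, the last 2 dim, and K-LM P6 replicate 2 at −4.30 lay just under the highest P3 sample. Ddit4 rose by 0.92 ± 0.23 (adjusted p = 0.0091) from 2.18, 2.21, 1.53, 2.56 and 2.31, with all P6 samples above all P3 samples. Egln1 was dim in all 5 P3 samples and between −6.98 and −6.74 at P6 (adjusted p = 0.00466). No fold is given because P6 was not brighter than the P3 arrays could measure, so this call does not show a rise. Most of these 7 calls stood near the threshold: 1 was left without K-LM P6 replicate 1, 2 or 3, and 3, 4 and 2 were left without K-LM P3 replicate 2, 4 and 5. Slc2a3 was called in 8 of 8 fits that left out a single sample, Hk1 in 5, Egln1 in 4, and Hk2, Pfkfb3, Slc16a3 and Ddit4 in 2 each. With the RNA-quality index as a covariate 1 was left, beside 0.804% of all probes. Over this step 2 of 8 fibroblast markers were called higher with a median of 1.75, and 0 of 11 leukocyte markers were called. The fibroblast marker mean at K-LM P3 was −6.73 to −5.20.

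Whether the P3 to P6 changes differed by route was tested directly. For T-LM against KPT 0 of 37 members were called by limma, beside 0.517% of all probes, and 6 had an unadjusted p under 0.05. For K-LM against KPT 1 was called beside 0.593%, and for K-LM against T-LM 1 beside 1.47%. The members' median differences were 0.15, 0.37 and 0.23, against 0.02, 0.05 and 0.01 over all probes. Ddit4 separated K-LM from KPT: it fell in KPT from 2.45 and 2.87 at P3 to at most 1.66 at P6 while it rose in K-LM, a difference of 1.92 ± 0.35 (adjusted p = 0.00102), which was lost (0 calls) without KPT P3 replicate 2. Slc2a3 separated K-LM from T-LM by 2.17 ± 0.50 (adjusted p = 0.00658): it was −2.75, −2.99 and −2.55 in T-LM P3 and between −3.50 and −2.86 in T-LM P6. That call was lost in 10 of the 15 fits that left out a single sample.

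Most of the members called between P1 and P6 were lower at P6. From P1 to P6 in KPT 15 of 36 members were called, all lower, beside 11.7% of all probes, and in T-LM 5 of 37 (1 higher, 4 lower) beside 9.08%. Among all probes called, 1007 were higher and 1572 lower in KPT, and 868 and 1264 in T-LM. K-LM had 1 sample at P1 and was not tested. The members' median change was −0.58 in KPT and −0.34 in T-LM, against −0.09 and −0.15 over all probes. With arrays scaled by the percentile of all probes, 9 members were called in KPT beside 10.4% of all probes and 3 in T-LM beside 8.9%, and the median over all probes became 0.08 and 0.06.

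In KPT the genes called lower included both glucose transporters and 7 of the 15 glycolysis enzymes, while Aldoa, Tpi1, Gapdh, Pgk1, Pgam1 and Ldha were among those not called. Slc2a1 was 2.03, 1.98, 2.29, 2.13 and 2.09 at P1, all above its P6 samples, and fell by 1.06 ± 0.12 on the log2 scale (2.09-fold, adjusted p = 7.7e-06). Hk1 was 1.14, 1.49, 0.99, 1.78 and 1.40 at P1 and fell 2.67-fold (adjusted p = 1.1e-05). Slc2a3 was −1.38, −1.38, −0.72, −0.94 and −1.11 at P1 and fell 2.57-fold (adjusted p = 6.65e-05). These P1 samples did not overlap P6 for either transporter. Hk2, Pfkfb3, Pfkl, Pfkp, Eno1 and Pkm fell between 1.38-fold and 2.51-fold, Ankrd37, Bnip3, Ddit4 and Ero1l between 1.98-fold and 3.04-fold, and the alpha subunit genes Hif1a and Epas1 fell 2.25-fold and 1.4-fold. Of 10 fits that left out a single sample, Epas1 and Eno1 were called in 1 each, Hif1a in 4 and Pkm and Ero1l in 6 each, and the other 10 in all. Over this step 6 of 18 long mRNAs were called lower with a median of −0.51, and 0 of 8 fibroblast markers were called with a median of −1.20.

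In T-LM, Slc2a3 was −2.04, −0.56, −0.59, −0.88 and −0.50 at P1, all above P6, and fell 4.65-fold (adjusted p = 0.000175). Pfkp, the platelet-type phosphofructokinase, fell 2.22-fold, Slc2a1 fell 1.98-fold and Ndrg1 fell 1.9-fold. Ndrg1 was called in 2 of 9 fits that left out a single sample, and the other members in all 9. Over this step 4 of 18 long mRNAs were called lower with a median of −0.70, and 5 of 5 tested lung epithelial markers were called higher. Pfkfb4 went the other way and rose 2.26-fold (adjusted p = 0.000157), from between −4.51 and −3.76 at P1 to between −3.15 and −2.60, with no overlap. The lowest of the P1 samples for Slc2a3, replicate 1, is the sample whose title gives no route.

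At P6 the routes were compared with each other. T-LM against KPT gave 9 of 37 members (7 higher, 2 lower) beside 11.2% of all probes, K-LM against KPT 11 of 37 (all higher) beside 15.3%, and K-LM against T-LM 7 of 37 (5 higher, 2 lower) beside 11.8%. In the same order, all probes called split into 1585 higher and 888 lower, 1431 and 1939, and 937 and 1678. Median changes of the members were 0.21, 0.42 and 0.20, against 0.01, 0.01 and −0.02 over all probes. The per-sample levels are those given above for P6.

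Against KPT, T-LM was higher for Slc16a3 (18.9-fold, adjusted p = 5.99e-06) and Egln3 (10.7-fold against KPT P6 samples of which 3 of 5 were dim, adjusted p = 1.15e-06). It was also higher for Pfkfb4 (2.3-fold), Ankrd37 (2.39-fold), Pfkfb3 (2.25-fold), Hk2 (2.06-fold) and Ddit4 (1.69-fold), and lower for Ndrg1 (1.64-fold) and Slc2a3 (1.55-fold). Slc16a3, Egln3 and Pfkfb4 did not overlap between the routes. The fibroblast and leukocyte means of T-LM P6 were also above every KPT P6 sample. Of 9 fits that left out a single sample, Ankrd37, Ndrg1 and Slc2a3 were called in 2 each and Hk2 in 3, while the other 5 were called in all. Without T-LM P6 replicate 2, 5 members were called.

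Against KPT, K-LM was higher for Slc2a3 (3.09-fold, adjusted p = 2.33e-05), Ddit4 (2.62-fold, adjusted p = 2.54e-05), Hk1 (2.55-fold) and Slc2a1 (2.05-fold). Pfkfb3, Pfkp, Tpi1, Bnip3, Ankrd37, Egln3 and Egln1 made up the 11, with changes from 0.47 to 1.91 on the log2 scale, and Egln1, dim in KPT P6, was at least 1.19-fold higher. Of 8 fits that left out a single sample, Ankrd37 and Tpi1 were called in 3 each, Pfkfb3 in 5 and Bnip3 in 6, and the other 7 in all. The leukocyte marker mean of K-LM P6 lay below every KPT P6 sample. Against T-LM, K-LM was higher for Slc2a3 (4.78-fold, adjusted p = 4.22e-06), Ndrg1 (2.21-fold), Pfkp (1.92-fold), Slc2a1 (1.84-fold) and Adm (1.69-fold), and lower for Angptl4 (2.34-fold) and Kdm3a (2.04-fold), a histone demethylase induced by HIF. Angptl4 was 0.34, 0.52 and 0.98 in K-LM P6, all below the T-LM samples. In 7 such fits, Adm, Slc2a1 and Ndrg1 were called in 5 each and Angptl4 in 6, and Slc2a3, Pfkp and Kdm3a in all. Without K-LM P6 replicate 1, 7 members were called against KPT and 4 against T-LM, and the correction for the late slide rests on the 5 repeated RNA samples.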

How the data were processed

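Total RNA of 65 samples was amplified, labelled with Cy5 and hybridised to 70 single-colour Agilent mouse arrays, 5 RNA samples having been hybridised again. Each deposited scanner file gives spot intensity values as written by the Feature Extraction software the authors used (version 11.0.1.1 for 62 arrays, 12.0.2.2 for the 8 arrays of the late slide, per the file headers), with the processed intensity already background-subtracted. The deposited series table is log2-transformed and differed by at most 0.107 from the quantile-normalised log2 raw median. Slide, scan and software of the late slide cannot be told apart. Arrays have no counting depth, and their number limits the precision. The 38 members and all lists were chosen with earlier results of these data known.

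Control spots (3671 of 62976) and outlier spots (141 to 454 per array) were left out, spots were averaged into 55681 probes, and accessions were matched to symbols through a RefSeq table of GRCm38.p6 (28026 probes, 21154 symbols, with Ero1l as the older name of Ero1a). Log2 processed signals minus the 75th percentile per array were fitted with limma 3.58.1 (lmFit, eBayes, R 4.3.3), with a fit for each route over P0 and P2 to P6, plus P1 where compared. KPT and T-LM fits used first arrays. K-LM, P6 and between-route fits added the repeat arrays, a late-slide term and a random block for RNA sample (duplicateCorrelation, statmod 1.5.0, 2000 probes). Levels average the repeat arrays, so a fitted change can differ from the difference of levels. A fold written as at least N uses, for a group dim on all arrays, the weakest signal that passed on each of them. Values per sample are given for members called in a P0 to P6 or P3 to P6 comparison and for Vhl, Hif1a, Epas1, Car9, Vegfa, Slc2a1, Ldha and Pgk1, and up to 3 genes per other list, those with the largest change among genes called in 2 or more routes, are named. On simulated data the KPT P0 to P6 fit recovered 22% of probes changed by 1 on the log2 scale and 81% of those changed by 2 (20690 probes). The T-LM fit recovered 13% and 67% (21055 probes), and the K-LM fit 18% and 72% (21977 probes). Each simulation changed 100 probes by each size, fewer than the 797, 1551 and 1234 called in KPT, T-LM and K-LM. The adjusted p depends on how many probes change, so these shares do not give the power of the reported tests. The alternatives were other scalings and filters, normexp with an offset of 50 on the median signal and quantile normalisation, the deposited values, other models and blocks, and leaving out single samples.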

Additional observations from a re-analysis of the deposited data

Results flagged for a closer look

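Of 341 gene and group pairs of 4 to 10 samples, 16 held a sample far from the rest of its group, where chance gives about 17.1 (5%). In KPT, Ero1l was 1.35 in P1 replicate 2 (others 0.34 to 0.55), Adm was 0.99 in P5 replicate 5 (others 0.38 to 0.46) and Hk2 was −1.71 in P5 replicate 1 (others −2.82 to −2.50). At KPT P6, Ddit4 was 1.34 in replicate 5 (others 1.61 to 1.66) and Gapdh was 4.01 in replicate 4 (others 4.34 to 4.38). In T-LM P1, replicate 1 had Ddit4 at 3.30 (others 2.68 to 2.84) and Slc2a3 at −2.04 (others −0.88 to −0.50), and replicate 5 had Aldoa at 4.43 (others 4.79 to 4.88) and Slc2a1 at 2.64 (others 2.06 to 2.23). In T-LM P4, Ddit4 was 2.85 in replicate 2 (others 2.53 to 2.55) and Pgk1 was 4.52 in replicate 4 (others 4.08 to 4.16). In T-LM P5, Slc16a3 was 1.07 in replicate 1 (others −3.96 to −2.17) and Pgam1 was 3.83 in replicate 6 (others 4.18 to 4.31). T-LM P6 replicate 2 stood apart for Hif1a at 0.12 (others −0.50 to −0.45) and Slc2a1 at 0.91 (others 1.34 to 1.39), and K-LM P5 replicate 6 for Pdk1 at −3.12 (others −3.57 to −3.49).

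The P3 to P6 change differed between routes by the test of the difference for Ddit4, by 1.92 in K-LM against KPT, and for Slc2a3, by 2.17 in K-LM against T-LM.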

How the results depend on the processing

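The P0 to P6 calls of Pfkfb4 in T-LM and K-LM, of Car9 in KPT and T-LM, of Slc16a3 in T-LM and K-LM, of Slc2a3 in K-LM and of Ddit4 in KPT held under every alternative that gave them a value. Limits are the 2 P0 samples, the single late slide behind K-LM P6, and the dim probes of Slc16a3, Egln3, Egln1, Car9 and Pfkfb4 on arrays of P0 or P3. Where another setting moved a number below, the cause was not tested, except that requiring signal above background on all arrays removes members that are dim anywhere. Under that filter the members called from P0 to P6 numbered 2 (KPT), 0 (T-LM) and 1 (K-LM), and from P3 to P6 they numbered 1 (KPT) and 1 (T-LM).

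The share of all probes called under the same setting stands in brackets after each count of members. With only the groups compared in the fit, calls were 9 for K-LM P0 to P6 (15.7%, against 5.51% in the report), 4 for KPT P3 to P6 (4.34%, with 0 members and 0.772% in the report), 4 for K-LM P3 to P6 (6.97%) and 2 each for the differences of T-LM from KPT (3.0%) and of K-LM from T-LM (2.74%). With the late slide alone K-LM P0 to P6 gave 9 (14.5%). KPT P3 to P6 gave 1 with the percentile of all probes (0.167%), with normexp and quantile normalisation (0.686%) and with the deposited values (0.605%). With the percentile of all probes there were 3 calls for K-LM P3 to P6 (5.62%), 9 for KPT P1 to P6 (10.4%) and 3 for T-LM P1 to P6 (8.9%). With no filter there were 1 for K-LM P3 to P6 (0.923%), 4 for K-LM against T-LM at P6 (2.69%) and 0 for the difference of K-LM from T-LM (0.379%). With slide as a random block there were 3 for K-LM P3 to P6 (3.17%), 17 for K-LM against KPT at P6 (21.9%, against 15.3% in the report) and 0 for the difference of K-LM from T-LM (1.17%). With the RNA-quality index as a covariate there were 2 for T-LM P3 to P6 (4.95%) and 1 for K-LM P3 to P6 (0.804%). With all routes in a single model there were 4 for K-LM P3 to P6 (6.79%), 10 for T-LM P1 to P6 (11.3%), and at P6 4 for T-LM with KPT (3.86%), 7 for K-LM with KPT (4.66%) and 4 for K-LM with T-LM (4.03%). Averaging the probes of a gene gave 2 for the difference of K-LM from T-LM (1.47%).

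Replicate numbers did not pair the samples: the deviations of same-numbered samples correlated between −0.51 and 0.44. With the replicate block there were 2 calls for T-LM P3 to P6 (5.03%), 0 for K-LM P3 to P6 (1.67%), 5 for T-LM against KPT at P6 (8.53%) and 0 for the difference of K-LM from T-LM (1.26%), and the other counts stayed within 1.5 times.

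Leaving out single samples gave 2 to 4 calls for KPT P0 to P6, 3 to 4 for T-LM and 3 to 3 for K-LM. It gave 0 to 0, 2 to 4 and 1 to 7 for P3 to P6 in KPT, T-LM and K-LM, and 10 to 16 and 4 to 5 for P1 to P6 in KPT and T-LM. At P6 it gave 5 to 7 for T-LM against KPT, 7 to 12 for K-LM against KPT and 4 to 8 for K-LM against T-LM. For the differences in the P3 to P6 change it gave 0 to 0 for T-LM from KPT and 0 to 1 for each of the others. The Slc2a3 difference was lost without K-LM P3 replicate 3, 4 or 5, K-LM P6 replicate 2 or 3, T-LM P3 replicate 2 or 5, or T-LM P6 replicate 1, 2 or 4.

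Changes of genes that were not called turned sign, and under the alternative only Epas1 in T-LM passed the threshold. The ranges below lie between the values without either P0 sample, except that Hif1a was lowest without KPT P6 replicate 4 and highest without KPT P6 replicate 1. In KPT P0 to P6, Hif1a was −0.0054 with the percentile of all probes, −0.043 with the index, −0.045 with the late slide alone and −0.12 to 0.23 with single samples left out. Vegfa was −0.10 with probes averaged and −0.085 with the late slide alone, Epas1 was 0.0043 with the late slide alone, Pgk1 was 0.032 with normexp and 0.033 with the deposited values, and Vhl was −0.58 to 0.14 with single samples left out. Slc2a1 was 0.068 with all routes in a single model, 0.29 with the late slide alone and −0.33 to 0.095 with single samples left out. In T-LM, Epas1 was 1.52 with its probes averaged (adjusted p = 0.000715). Pgk1 was 0.047 with normexp and 0.049 with the deposited values, and Slc2a1 was −0.14 with the percentile of all probes, −0.030 with the replicate block and −0.12 to 0.30 with single samples left out. Vegfa was −0.058 with the percentile of all probes and −0.0049 with probes averaged, and Vhl was −0.57 to 0.16 with single samples left out. In K-LM, Ldha was −0.038 with the percentile of all probes, −0.26 without the late slide term and −0.32 to 0.37 with single samples left out. Vhl was −0.020 with the percentile of all probes and −0.38 to 0.53 with single samples left out.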
